A study of Mus musculus with 6 samples.

Results

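The genes described here encode the histone demethylase LSD1, its relative LSD2, and proteins of the CoREST complex in which LSD1 works. They are the 9 genes Kdm1a, Kdm1b, Rcor1, Rcor2, Rcor3, Hdac1, Hdac2, Phf21a and Hmg20b, out of 23337 genes in the count table. They were chosen by name, with earlier results of these data known. All 9 were found and all 9 had enough counts to be tested. For brevity all 9 are called subunits or subunit genes below, although Kdm1b encodes LSD2, which works outside CoREST. RNA was sequenced from granulocyte-monocyte progenitors of C57BL6 mouse bone marrow with ER-HOXA9, in which the homeobox factor HOXA9 is joined to the estrogen receptor and keeps such cells immature and dividing while beta-estradiol is supplied. The medium of every culture held 0.5 µM beta-estradiol with stem cell factor. There were 3 groups of 2 biological replicates: untreated cells taken at day 0, cells given the solvent DMSO (vehicle) for 3 days, and cells given 200 nM GSK-LSD1, 5 µM mercaptopurine and 5 µM cerulenin together for 3 days. GSK-LSD1 inhibits LSD1, mercaptopurine is a purine antimetabolite and cerulenin inhibits fatty acid synthase. No group received a single drug, so the effects of the 3 drugs cannot be told apart. The promoter that drives ER-HOXA9, and whether the cells are 1 clone, are points that no source used here gives.

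LSD1 is a flavin-dependent amine oxidase that removes methyl groups from lysine 4 of histone H3 at enhancers and promoters and so helps to silence genes. A CoREST protein (from Rcor1, Rcor2 or Rcor3) links LSD1 to nucleosomes and to the deacetylases HDAC1 and HDAC2, while BHC80 (from Phf21a) reads histone H3 whose lysine 4 carries no methyl group. In myeloid progenitors the complex is brought to DNA by the SNAG-domain repressors GFI1 and GFI1B, and LSD1 inhibitors disturb that contact and promote differentiation. A transcript level does not measure whether the enzyme was inhibited.

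The sequences below lie upstream of a RefSeq transcript start of Kdm1a, the drug target, and of the 4 subunit genes whose transcripts passed the test between drugs and vehicle. They come from RefSeq (GRCm38.p6, the same assembly as mm10), which held an entry for 8 of the 9 genes. Each runs 5′ to 3′ on the gene's own strand from 250 to 71 bases before the RefSeq transcript start. Capitals mark a GC box (GGGCGG or CCGCCC) or a CCAAT box (CCAAT or ATTGG) in either orientation.
Kdm1a: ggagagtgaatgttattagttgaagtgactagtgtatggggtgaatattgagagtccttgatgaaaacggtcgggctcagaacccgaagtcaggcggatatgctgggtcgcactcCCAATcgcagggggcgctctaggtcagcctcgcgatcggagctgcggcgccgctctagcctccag
Phf21a: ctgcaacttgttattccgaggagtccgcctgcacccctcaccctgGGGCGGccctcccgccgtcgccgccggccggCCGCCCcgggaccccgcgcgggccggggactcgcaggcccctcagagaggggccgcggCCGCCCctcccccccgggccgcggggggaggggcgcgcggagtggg
Rcor1: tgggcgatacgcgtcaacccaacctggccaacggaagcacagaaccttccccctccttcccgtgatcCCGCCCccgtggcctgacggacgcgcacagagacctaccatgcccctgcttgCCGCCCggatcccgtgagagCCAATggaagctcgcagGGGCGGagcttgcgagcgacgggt
Rcor2: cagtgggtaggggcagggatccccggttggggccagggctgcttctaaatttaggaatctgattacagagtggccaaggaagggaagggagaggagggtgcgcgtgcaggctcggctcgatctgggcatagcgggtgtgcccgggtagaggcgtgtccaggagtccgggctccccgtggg
Hdac2: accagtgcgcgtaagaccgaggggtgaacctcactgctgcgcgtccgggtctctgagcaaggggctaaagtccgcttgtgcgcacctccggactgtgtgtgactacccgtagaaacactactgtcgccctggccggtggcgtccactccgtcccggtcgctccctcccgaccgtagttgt
The windows are chr4:136602794-136602973 (minus strand) for Kdm1a and, on the plus strand, chr2:92185233-92185412 for Phf21a, chr12:111039117-111039296 for Rcor1, chr19:7267144-7267323 for Rcor2 and chr10:36974294-36974473 for Hdac2. For Phf21a the entry with the upstream start of 2 is shown. A GC box occurred 3 times in the window of Phf21a and 3 times in that of Rcor1, and in 21.1% of 32851 promoter windows of this length. That share was not matched for base composition. G and C made up 82.2% of the Phf21a window, 67.2% of Rcor1, 64.4% of Rcor2, 63.9% of Hdac2 and 56.7% of Kdm1a. The median over all windows was 51.1%. A CCAAT box was present upstream of Kdm1a and Rcor1 and in 25.0% of windows. The letters AAATCA or TGATTT, which hold the core bound by GFI1 proteins, were in none of these 5 windows and in 9.8% of all. The shorter core AATC or GATT by itself was not searched for. Both occur in the Rcor2 window, and AATC also occurs in the Kdm1a window, across the end of its CCAAT box. The RefSeq start coincided with the start of the deposited gene model for Kdm1a and Hdac2. It lay 431 and 2370 bp upstream of the model start for Rcor1 and Rcor2, and 1301 bp downstream of it for Phf21a. The Phf21a window therefore lies within the span of the deposited model, not upstream of it. The count table holds no promoter measurements, so these letters are a description only.

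Total counts per library ranged from 11305666 to 16948697. Levels are given in CPM, counts scaled to a fixed library total after normalization by trimmed mean of M values (TMM). Levels of different genes are compared only in CPM per kilobase of the deposited gene model. The subunit genes had between 133 (Hmg20b) and 2158 counts (Hdac2) in a library, which alone gives an error of 8.67% at the lowest count and less at higher counts. Progenitor markers were present: all 8 of Kit, Cd34, Mpo, Elane, Prtn3, Ctsg, Cebpa and Flt3 had counts in every library, and their summed level was 8632 to 8861 CPM with vehicle and 10860 to 11433 CPM with the drugs. Most of that sum was Mpo (mean 4644 CPM with vehicle and 6732 with the drugs). Of the 8 genes 3 were called higher (Kit, Mpo and Flt3) and 2 lower (Ctsg and Cebpa, log2 changes of -0.37 each). Markers of more mature cells differed between drugs and vehicle, and some of their sums were also lower with vehicle than at day 0. The summed level of 10 mature neutrophil markers was 16.3 to 21.5 CPM with vehicle and 3501 to 3818 CPM with the drugs, of which Mmp8 alone made up as much as 3798 CPM, while Camp and Retnlg had 0 counts in every library and Ltf and Ngp at most 2. The sum of 10 monocyte and macrophage markers was 536.8 to 578.4 CPM with vehicle and 904.3 to 968.1 CPM with the drugs, and C1qa had 0 counts throughout. The sum of 7 lymphoid markers was 78.9 to 92.0 CPM with vehicle and 48.0 to 49.6 CPM with the drugs, with Cd3e and Cd3g at 0. Most of that sum was Ebf1 (mean 71.8 CPM with vehicle and 36.7 with the drugs). Of the 3 tested lymphoid genes, Ebf1 and Cd79b were called lower (log2 changes -0.97 and -0.45) and Cd79a higher (0.84). The sum of 10 erythroid, megakaryocyte and mast cell markers was 934.7 to 1132 CPM at day 0 and 498.2 to 510.4 CPM with vehicle. With the drugs it was 1138 to 1229 CPM, with Hba-a1 and Fcer1a at 0. That rise was in Cpa3 (mean 460.3 and 1147 CPM), while Gp9 and Mcpt8 were called lower (log2 changes -2.58 and -0.30), and the median log2 change of the 5 tested genes was -0.30. Whether these marker differences have a part in the results below was not tested. In bulk RNA, fewer cells of a type and less RNA per cell cannot be told apart.

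Per kilobase, the deacetylases and Rcor1 were the most abundant of the 9 genes and Kdm1b the least. In vehicle libraries Hdac2 stood at 64.0 and 65.3 CPM per kb, Rcor1 at 47.5 and 43.1, Hdac1 at 42.2 and 46.1, and Kdm1a at 21.6 and 21.0. The remaining genes lay lower, from Rcor2 at 9.42 and 7.68 CPM per kb through Hmg20b and Rcor3 to Phf21a at 4.96 and 4.401 and Kdm1b at 3.93 and 3.49. Rcor1 and Hdac1 overlapped in that order, as did Rcor2 with Hmg20b and Hmg20b with Rcor3, while every other pair of neighbours was apart in both replicates. With the drugs the top of the order held the same genes, with Hdac2 above Hdac1 and Rcor1, which overlapped, and Kdm1a next. Lower down, Phf21a (7.45 CPM per kb in both libraries) then stood above Rcor3 (7.33 and 6.92) and Rcor2 (5.37 and 5.96). These levels depend on the length of each deposited model, from 1594 bp for Rcor3 to 6912 bp for Phf21a.

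**Figure D1:**
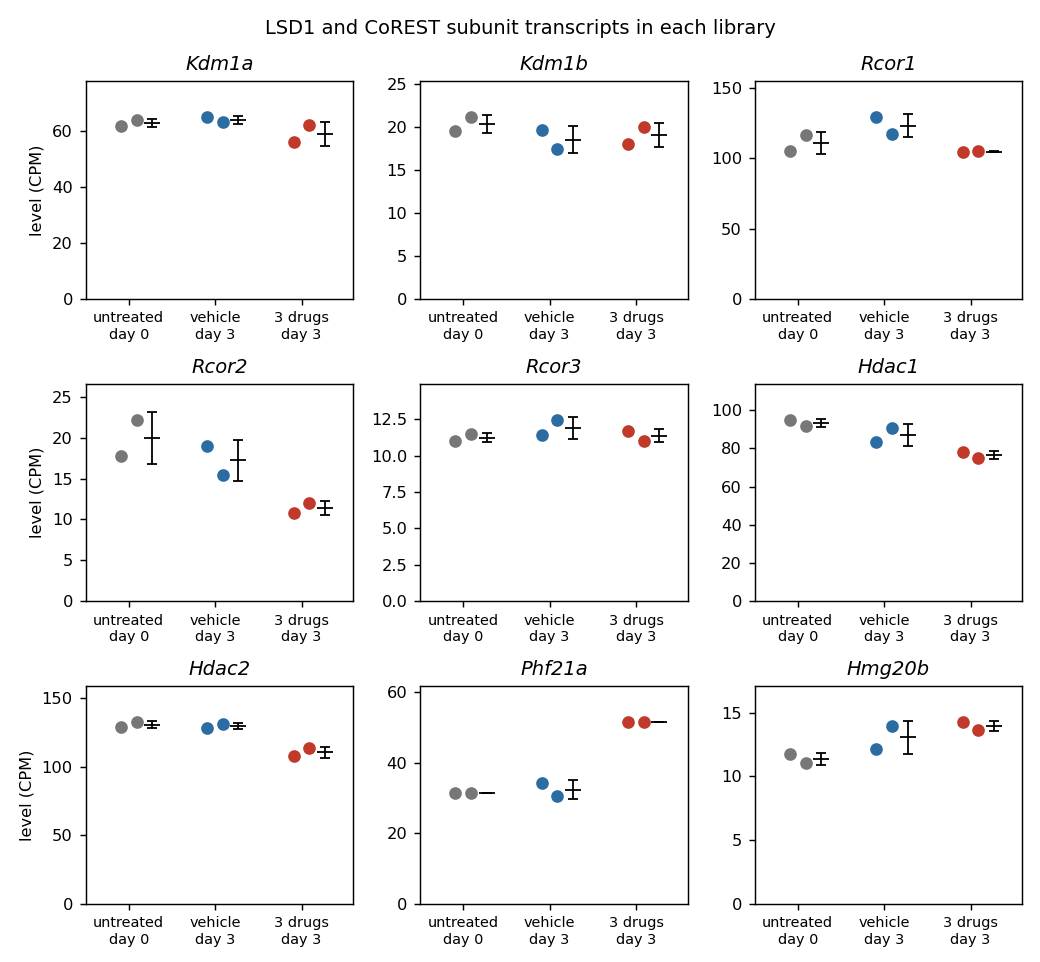
Level of each subunit gene (CPM, linear axis from 0) in untreated cells at day 0, vehicle at day 3 and the 3 drugs at day 3. Coloured points are single libraries, and the black mark beside them is the mean with its SD (n = 2). Phf21a lies at 51.5 CPM in both drug libraries and at 30.4 to 34.3 CPM in the other 4, and Rcor2 lies lowest with the drugs.

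The comparison of drugs with vehicle asked what 3 days of the combination did to the transcripts of these 9 genes. Phf21a rose about 1.59-fold and was the subunit gene with the clearest change, while Rcor2 fell to 0.66 of its vehicle level. Rcor1 and Hdac2 fell by a smaller amount, to 0.85 of vehicle each. Kdm1a, which encodes the drug target LSD1, was not called, and neither were Kdm1b, Rcor3, Hdac1 and Hmg20b. In all, 4 of 9 genes passed the edgeR quasi-likelihood test at an adjusted p under 0.05, with 1 higher and 3 lower. Over the 11283 genes tested 31.9% were called, 18.1% higher and 13.8% lower. At an unadjusted p under 0.05 the counts were 5 of 9 genes and 41.8% of all genes. Fits without 1 drug or vehicle library, which leave 1 culture in a group, called fewer of the 9 genes and also fewer of all genes. In all 14 alternative analyses the log2 changes of the 4 called genes kept their signs. The median log2 change was -0.11 over the 9 genes and 0.00075 over all genes tested.

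Of the 2 demethylases, Kdm1a, encoding LSD1 (chromosome 4, 136550533 to 136602723, mm10), had 65.03 and 63.18 CPM with vehicle and 56.1 and 62.2 CPM with the drugs. Both drug libraries lay below both vehicle libraries, but the gap between the nearest replicates was small beside the spread within the drug group. The log2 change was -0.11 ± 0.077 (SE, adjusted p = 0.288), with a 95% interval from -0.28 to 0.053, which corresponds to 0.82 to 1.04 of the vehicle level. A fall below 0.82 of vehicle and a rise above 1.04 therefore lay outside this interval. Kdm1b, which encodes LSD2, a related demethylase that works at the bodies of active genes outside CoREST, had 19.6 and 17.4 CPM with vehicle and 18.01 and 19.997 CPM with the drugs. Its replicates overlapped between the groups (log2 change 0.042 ± 0.11, adjusted p = 0.814, 95% interval 0.87 to 1.22 of vehicle). Kdm1b lies on chromosome 13 from 47043499 to 47085279, and 513 bp of its 4987 bp of exon overlap exons of Dek on the other strand. Dek averaged 264.9 CPM against 19.3 CPM for Kdm1b, and since no source used here states whether counting used the strand, reads of that overlap cannot be assigned. Upstream, Kdm1b starts 282 bp from the start of Tpmt, which runs the other way and encodes the enzyme that inactivates mercaptopurine. Tpmt averaged only 1.09 CPM and missed the threshold (log2 change 0.74 ± 0.344, adjusted p = 0.122).

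The CoREST scaffold genes differed in size of change. Rcor2 (chromosome 19, 7269764 to 7275225) had 19.0 and 15.5 CPM with vehicle and 10.81 and 11.998 CPM with the drugs. The groups did not overlap, and the log2 change was -0.59 ± 0.150 (adjusted p = 0.00941, 95% interval 0.53 to 0.83 of vehicle). This call was lost without vehicle replicate 1 (adjusted p = 0.0889) and without drug replicate 1 (adjusted p = 0.0799). Rcor1, the main scaffold in most tissues (chromosome 12, 111039798 to 111113386), had 129.3 and 117.4 CPM with vehicle and 104.4 and 105.2 CPM with the drugs. Its groups did not overlap either, with a log2 change of -0.24 ± 0.0757 (adjusted p = 0.0312). The Rcor1 call was lost with DESeq2 (adjusted p = 0.0788), with the replicate block (0.0683), and without vehicle replicate 1 (0.200), drug replicate 1 (0.186) or drug replicate 2 (0.148). Rcor3 (chromosome 1, 192100462 to 192137787), whose product binds LSD1 but has been described as a weaker partner for demethylation, had 11.4 and 12.5 CPM with vehicle and 11.69 and 11.03 CPM with the drugs. The Rcor3 groups overlapped (log2 change -0.070 ± 0.127, adjusted p = 0.713, 95% interval 0.79 to 1.15 of vehicle).

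Both deacetylase genes were lower in every drug library than in every vehicle library, though only Hdac2 passed the test. Hdac2 (chromosome 10, 36974544 to 37001888) had 128.2 and 131.0 CPM with vehicle and 107.8 and 113.5 CPM with the drugs, a log2 change of -0.23 ± 0.0668 (adjusted p = 0.0204). That call was lost with DESeq2 (adjusted p = 0.0608) and without vehicle replicate 1 (0.0511), vehicle replicate 2 (0.0601), drug replicate 1 (0.228) or drug replicate 2 (0.0842). Hdac1 (chromosome 4, 129516104 to 129542646) had 83.1 and 90.9 CPM with vehicle and 78.0 and 74.9 CPM with the drugs. Its log2 change of -0.19 ± 0.0719 missed the threshold (adjusted p = 0.0641), and it was called in 6 of 14 alternative analyses. HDAC1 and HDAC2 are close paralogs that also serve the SIN3 and NuRD complexes, so their transcripts are not specific to CoREST.

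Phf21a, encoding the histone reader BHC80 (chromosome 2, 92184182 to 92364666), had 34.3 and 30.4 CPM with vehicle and 51.5 CPM in each drug library. The drug libraries stood well above every other library. The log2 change was 0.67 ± 0.0848 (adjusted p = 6.08e-05), a rise of 1.59-fold with a 95% interval from 1.40 to 1.81. It was called in all 14 alternative analyses, with log2 changes from 0.57 to 0.76. By p-value it stood at place 567 among 11283 genes. Hmg20b (chromosome 10, 81346046 to 81350457), which encodes BRAF35, an HMG-box DNA-binding subunit, had 12.2 and 14.0 CPM with vehicle and 14.3 and 13.7 CPM with the drugs. Its groups overlapped (log2 change 0.096 ± 0.124, adjusted p = 0.598, 95% interval 0.89 to 1.29 of vehicle).

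Replicates of drugs and vehicle did not overlap for 6 of the 9 genes, Phf21a on the higher side and Kdm1a, Rcor1, Rcor2, Hdac1 and Hdac2 on the lower side. Over all genes tested the same held for 68.8%, so a lack of overlap between 2 and 2 libraries was common. DESeq2 called 2 of the 9 genes, Phf21a and Rcor2, and 21.7% of all genes tested.

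**Figure D2:**
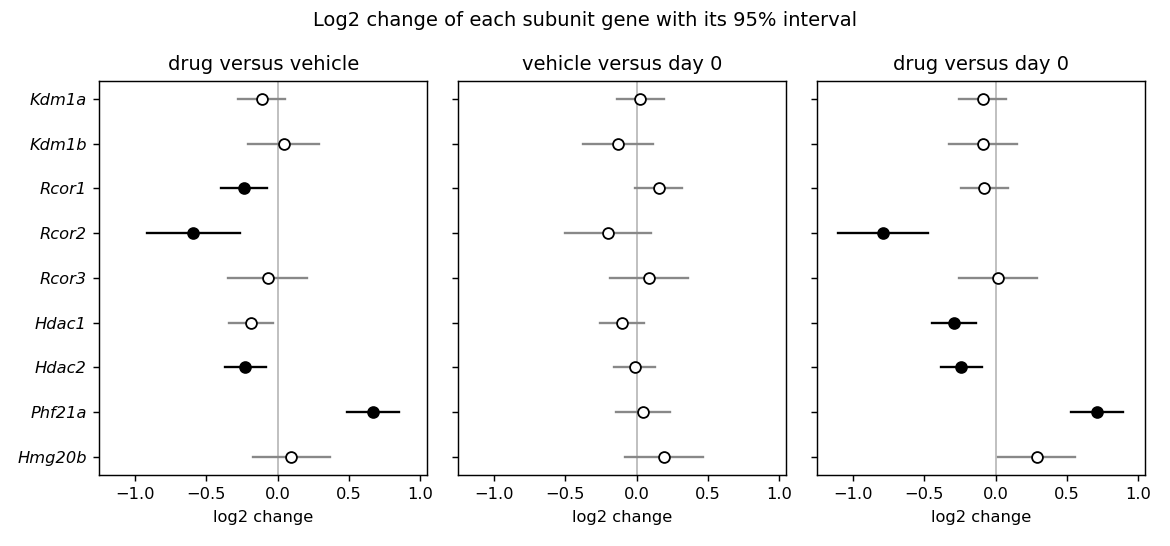
Log2 change of each subunit gene in the 3 comparisons (horizontal axis, 0 means no change), with its 95% interval as a line. Filled points passed an adjusted p of 0.05 and open points did not. Phf21a lies to the right and Rcor2 to the left in both comparisons with the drugs, and no point is filled for vehicle against day 0.

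The comparison of vehicle with day 0 asked what 3 days of culture in solvent did. None of the 9 genes was called by edgeR, against 7.74% of all genes tested (3.75% higher and 3.99% lower), and 0 had an unadjusted p under 0.05, while 25.2% of all genes did. DESeq2 called 0 of the 9 as well. Log2 changes ran from -0.20 (Rcor2) to 0.19 (Hmg20b), with a median of 0.025 against -0.017 over all genes. Replicates did not overlap for 3 genes, Rcor1 and Hmg20b higher and Hdac1 lower with vehicle, against 50.8% of all genes.

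At day 0, Kdm1a stood at 62.0 and 64.1 CPM, and its replicates overlapped with those of vehicle (log2 change of vehicle against day 0 0.025 ± 0.0763, adjusted p = 0.870). Phf21a had 31.5 and 31.3 CPM at day 0, inside the vehicle range (log2 change 0.045 ± 0.0883, adjusted p = 0.785). Rcor1 had 105.4 and 116.5 CPM at day 0 and was higher in both vehicle libraries, with a log2 change of 0.16 ± 0.0755 (adjusted p = 0.219). Hdac1 had 94.96 and 91.79 CPM at day 0 (log2 change -0.10 ± 0.071, adjusted p = 0.383) and Hmg20b had 11.72 and 11.05 CPM (log2 change 0.19 ± 0.127, adjusted p = 0.363). The replicates of Rcor2, Kdm1b, Rcor3 and Hdac2 overlapped between vehicle and day 0. Their log2 changes were -0.20 ± 0.139 for Rcor2, -0.13 ± 0.113 for Kdm1b, 0.087 ± 0.127 for Rcor3 and -0.012 ± 0.0663 for Hdac2, with adjusted p from 0.394 (Rcor2) to 0.929 (Hdac2). Rn45s, the ribosomal RNA precursor, took 20.4% and 24.6% of the counts at day 0 and 14.6% to 16.1% in the other libraries. With plain library totals in place of TMM, the median change of all genes moved from -0.017 to 0.10 and calls over all genes split into 1742 higher and 216 lower instead of 423 and 450. Rcor1 was then called higher (log2 change 0.28, adjusted p = 0.0132), beside that general shift, and with totals taken without Rn45s it was not called.

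The comparison of drugs with day 0 uses the drug libraries and the untreated libraries of the comparisons above. Again 4 of 9 genes were called, 1 higher and 3 lower, against 43.9% of all genes tested, 22.7% higher and 21.2% lower. At an unadjusted p under 0.05 the counts were 5 of 9 and 52% of all genes. Phf21a rose by 0.71 ± 0.0838 on the log2 scale (adjusted p = 2.5e-05) and Rcor2 changed by -0.79 ± 0.145 (adjusted p = 0.000844), from 17.7 and 22.2 CPM at day 0. Both calls held in all 14 alternative analyses. Hdac1 changed by -0.29 ± 0.071 (adjusted p = 0.00543) and Hdac2, at 129.0 and 132.4 CPM on day 0, by -0.24 ± 0.0664 (adjusted p = 0.0111). Leaving out drug replicate 2 (adjusted p = 0.0745) or using library totals (0.0813) ended the Hdac1 call, and leaving out drug replicate 1 (0.160) or using library totals (0.0852) ended that of Hdac2. Rcor1 missed the threshold against day 0 (log2 change -0.080 ± 0.0756, adjusted p = 0.417), though both drug libraries lay below both untreated ones. Whether its changes against vehicle and against day 0 differ was not tested.

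Kdm1a missed the threshold against day 0 (log2 change -0.088 ± 0.0761, adjusted p = 0.368), and so did Kdm1b (-0.089 ± 0.111, from 19.6 and 21.1 CPM, adjusted p = 0.541) and Rcor3 (0.016 ± 0.1255, from 11.003 and 11.46 CPM, adjusted p = 0.927). Hmg20b was higher in both drug libraries than in both untreated ones, and its log2 change of 0.29 ± 0.124 missed the threshold (adjusted p = 0.0761). Replicates did not overlap for 6 of the 9 genes, against 73.2% of all genes. The median change was -0.088 over the 9 genes and -0.0075 over all.

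Shares within each paralog family were then computed per kilobase in every library. Rcor2 made up 16.2% and 18.1% of the 3 Rcor transcripts in untreated, 14.7% and 13.1% in vehicle and 10.5% and 11.6% in drug libraries. The 3 groups did not overlap, and the share was lowest with the drugs. Rcor1 held 71.2% and 70.2%, then 74.2% and 73.6%, then 75.12% and 75.01% in the same order of groups, and its replicates did not overlap between the groups. For the deacetylases the share of Hdac1 was 42.1% ± 1.03 (SD, n = 2) in untreated, 40.6% ± 1.17 in vehicle and 41.3% ± 1.56 in drug libraries, and these ranges overlapped. Kdm1a made up 83.7% ± 0.410 of Kdm1a and Kdm1b together in untreated, 85.2% ± 0.812 in vehicle and 83.7% ± 0.0082 in drug libraries. Relative to Kdm1a, Phf21a transcript stood at 0.221 and 0.213 at day 0, 0.230 and 0.210 in vehicle libraries and 0.400 and 0.361 in drug libraries. Rcor2 relative to Kdm1a stood at 0.427 and 0.518 in untreated, 0.437 and 0.366 in vehicle and 0.288 and 0.289 in drug libraries, and the drug libraries lay below all others. The ratio of Hdac2 to Kdm1a lay between 2.74 and 3.13 and Rcor1 to Kdm1a between 1.87 and 2.20 across all libraries. These shares and ratios were not tested, and an exact permutation test of 2 against 2 libraries could not give a two-sided p below 0.333.

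**Figure D3:**
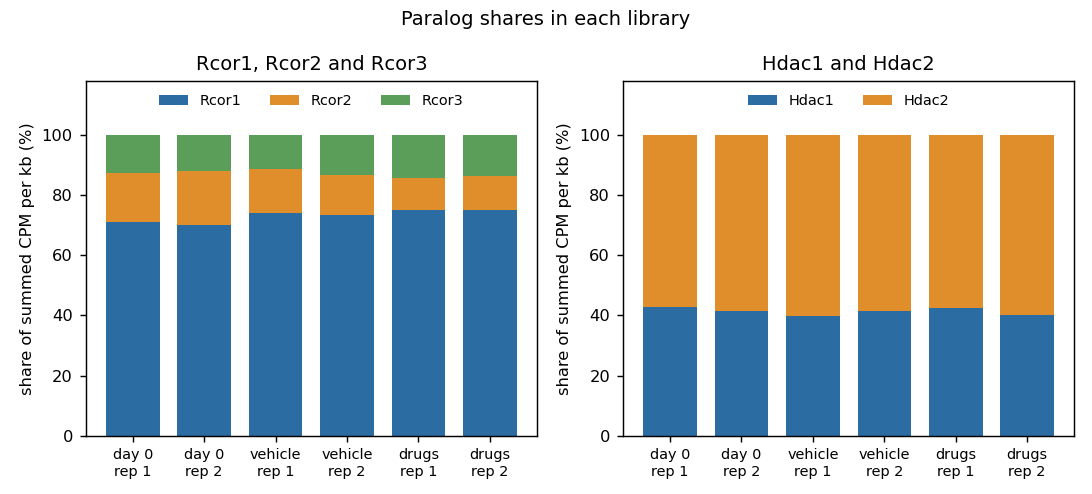
Share (percent) of each paralog in the summed CPM per kilobase of its family, in each of the 6 libraries, as stacked bars that add up to 100%. The left panel shows Rcor1, Rcor2 and Rcor3 and the right panel Hdac1 and Hdac2. The Rcor2 segment is smallest in the drug libraries (10.5% and 11.6%).

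Partners and related chromatin complexes were compared between drugs and vehicle, from lists chosen with earlier results of these data known. In that comparison 18.1% of all genes were called higher and 13.8% lower. Among factors that bring LSD1 to DNA, 8 of 15 had enough counts, and 3 were called higher and 1 lower (median log2 change 0.47). Gfi1b had 5 and 3 counts at day 0, 1 and 0 with vehicle, and 1104 and 1352, or 88.4 and 87.2 CPM, with the drugs. It had enough counts only in the drug libraries, so its call among the 3 and its part in the median are no independent support. Gfi1 had 248.1 and 281.3 CPM with vehicle and 727.8 and 710.4 CPM with the drugs (log2 change 1.44 ± 0.0819, adjusted p = 3.69e-08). Both repressors were thus far higher in drug libraries than in any other library, while Kdm1a itself was not called. Runx1, a core haematopoietic factor, rose by 0.50 ± 0.0844 and Tal1, a factor of erythroid and stem cells, changed by -0.71 ± 0.0835. Of 11 further proteins found with LSD1, only Zfp217, a zinc finger protein, was called (log2 change 0.42 ± 0.0682, adjusted p = 0.000495). The corepressors Ctbp1 and Ctbp2 were not called (log2 changes 0.059 and -0.16).

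Of the NuRD complex, which shares HDAC1 and HDAC2 with CoREST, 2 of 12 genes were higher and 3 lower (median -0.13). Chd3, a remodelling ATPase, rose from 50.8 ± 4.48 to 177.3 ± 13.4 CPM (mean ± SD, n = 2; log2 change 1.80 ± 0.0827, adjusted p = 5.81e-09), whereas its relative Chd4 was not called (-0.23 ± 0.101, adjusted p = 0.107). Mbd2, which binds methylated DNA, rose by 0.45 ± 0.0772, and the falls were Mta2, Gatad2a and Cdk2ap1, at -0.22, -0.30 and -0.41. In the SIN3, NCoR and MiDAC complexes 1 of 20 genes was higher, Sap30 (0.39 ± 0.102), and 1 lower, Tbl1xr1 (-0.27 ± 0.0961). Sap30 and Tbl1xr1 lost their calls with DESeq2 (adjusted p = 0.0651 and 0.0568) and without either drug replicate (0.0699 to 0.279). Sap30 also lost it without vehicle replicate 2 (0.0826), and Tbl1xr1 without vehicle replicate 1 (0.300) and with the replicate block (0.0865).

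Of 13 tested deacetylases outside the complex, 4 were higher and 0 lower (median 0.11). Hdac9, a class II deacetylase, stood at 9.36 ± 0.831 CPM with vehicle and rose to 43.4 ± 0.736 (log2 change 2.21 ± 0.130, adjusted p = 4.87e-08), and Hdac6, the cytoplasmic tubulin deacetylase, rose by 0.70 ± 0.113. The others were Sirt2 (0.50) and Hdac5 (0.32). Sirt2 was also called lower with vehicle than at day 0 (log2 change -0.42), and it was not called between drugs and day 0 (0.075). Of 14 JmjC demethylases, which use iron and not flavin, 1 was higher and 2 lower (median 0.045). Kdm7a, listed as Jhdm1d, had 14.5 ± 3.04 CPM with vehicle and rose to 50.0 ± 4.52 (log2 change 1.78 ± 0.131, adjusted p = 4.67e-07). Riox1, listed as 2410016O06Rik, changed by -0.39 ± 0.0797 and Kdm2b by -0.25. Leaving out drug replicate 1 ended the Riox1 call (adjusted p = 0.0542). Kdm5a, Kdm5b and Kdm5c, which also demethylate lysine 4 of histone H3, were not called (log2 changes 0.088, 0.055 and -0.041).

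On the writing side, 14 of 16 listed genes of the H3K4 methyltransferase complexes were found and tested, with 1 called higher and 2 lower (median -0.084). Wdr5, a core subunit of these complexes, changed by -0.38 ± 0.0694 (adjusted p = 0.00122). Hcfc1, a chromatin-bound cofactor, changed by -0.24 ± 0.0832 (adjusted p = 0.0468), and Paxip1, a subunit of the KMT2C and KMT2D complexes, rose by 0.20 ± 0.0692 (adjusted p = 0.0385). Both of these calls were lost with the replicate block (adjusted p = 0.0994 for Hcfc1 and 0.0698 for Paxip1), and without vehicle replicate 1 or either drug replicate (0.151 to 0.267). Paxip1 also lost it with DESeq2 (0.150), with library totals (0.115), with totals without Rn45s (0.0635) and with no filter (0.0557). In vehicle against day 0, the 7 lists had at most 2 calls in either direction each.

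**Figure D4:**
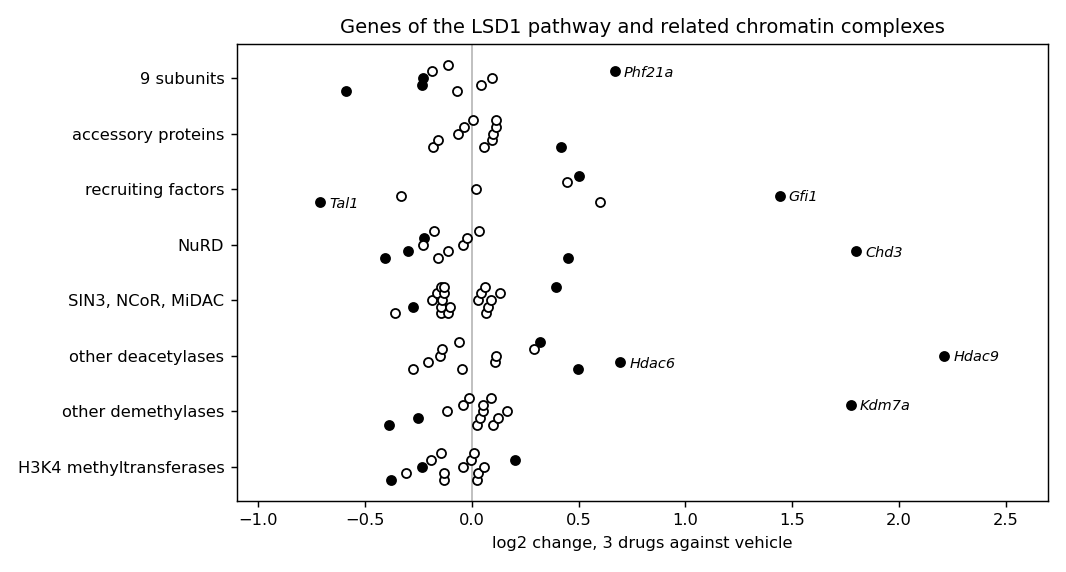
Log2 change with the 3 drugs against vehicle (horizontal axis) of the 9 subunit genes and the 7 related lists, 1 point per tested gene, filled where the adjusted p was under 0.05. Points are spread vertically within a list for visibility, and Gfi1b, with 1 and 0 counts in vehicle libraries, is left out. Hdac9, Chd3, Kdm7a and Gfi1 lie farthest to the right, beyond all 9 subunit genes.

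Over the 6 libraries, the genes whose log2 level (CPM + 1) followed that of Kdm1a most closely, among 8402 others averaging at least 10 CPM, were Nagpa, 0610011L14Rik and Tceb3, with Pearson r of 0.969, 0.969 and 0.964. Tceb3 encodes a subunit of the elongin complex and lay between 110.9 and 123.9 CPM. Since Kdm1a itself varied only from 56.12 to 65.03 CPM, these values describe small differences. The 6 points share 1 scaling per library. With 8402 genes searched over 6 points, values this high can arise from the search alone, and no test was made.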

How the data were processed

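Polyadenylated RNA of 6 cultures was sequenced. The deposited table holds raw counts per gene from the authors, 1 column per library, and a Length column, in base pairs, which equals the merged exons for the 9 genes. The submitters' processing notes name STAR 2.7.0f, deepTools 3.0.2 and mm10, and featurecount is the labels' word for the table. For annotation release, strand setting and multiply matching reads, nothing is given in the sources used here. The filterByExpr rule kept 11283 genes. After TMM scaling, all 3 groups were fitted in 1 edgeR 4.0.16 model (R 4.3.3) (residual degrees of freedom 3, common biological coefficient of variation 0.0592). Tests were edgeR quasi-likelihood F tests at 0.05 after Benjamini-Hochberg adjustment across every tested gene. The SE was derived from F and the 95% interval from SE and the moderated degrees of freedom. The test was tried on simulated data. DESeq2 1.42.0 was an alternative. Intervals cover only the spread between these cultures.

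The genes and lists were chosen with earlier results of these data known. Named genes were the 9 subunits, up to 4 called genes per list (the 2 smallest p and the 2 largest changes), Gfi1 and Gfi1b, and the 3 genes most like Kdm1a. Other genes were named after their values were seen, and the alternatives were not run for them. Of the listed genes, 8 were matched through older symbols and 4 were not matched. Replicate numbers were not used to pair cultures: deviations with the same number correlated at 0.0807 (drug and vehicle), -0.199 (vehicle and day 0) and -0.0604 (drug and day 0).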

Additional observations from a re-analysis of the deposited data

How the results depend on the processing

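In drug versus vehicle, fits without 1 drug or vehicle library called fewer subunit genes and fewer of all genes. Those without 1 day 0 library called more of both. The count of called subunit genes in drug versus vehicle was 4, beside 31.9% of all genes, and 2 with DESeq2, beside 21.7%. In drug versus day 0 it was 4, 2 with library totals, and 3 to 4 with single libraries left out. In vehicle versus day 0 it was 0, 1 with library totals (Rcor1), and 0 whichever library was left out. With the replicate block the counts were 3, 0 and 4 for drug versus vehicle, vehicle versus day 0 and drug versus day 0. The block ended the call of Rcor1 in drug versus vehicle, where it called 26.2% of all genes. A crossed replicate block, added after seeing the data, gave 5, 0 and 5, and called 41.8% of all genes in drug versus vehicle. Over all genes in vehicle versus day 0, 423 were higher and 450 lower, against 222 and 261 with the replicate block, 255 and 236 with DESeq2 and 1097 and 1283 with the crossed block.

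Signs turned only for genes that were not called. With library totals the values were 0.020 for Hdac1 and 0.11 for Hdac2 in vehicle versus day 0, and 0.0025 for Kdm1a, 0.00026 for Kdm1b and 0.014 for Rcor1 in drug versus day 0. Without Rn45s in the totals, Rcor3 was at -0.013 in drug versus day 0. Hdac2 in vehicle versus day 0 was at 0.0020 with no filter and 0.0019 with only the groups compared. The remaining turns came from leaving out 1 library, with ranges of -0.055 to 0.13 for Kdm1b and -0.0028 to 0.18 for Hmg20b in drug versus vehicle, -0.00026 to 0.058 for Kdm1a, -0.031 to 0.0041 for Hdac2 and -0.044 to 0.14 for Phf21a in vehicle versus day 0, and -0.023 to 0.054 for Rcor3 in drug versus day 0. The cause was not tested. At 133 to 327 counts a library, changes of Kdm1b, Rcor2, Rcor3 and Hmg20b had SEs of 0.11 to 0.15, so smaller changes than Phf21a's could go uncalled in these genes.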
